A study of Mus musculus with 57 samples.

Results

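Foxn1, Psmb11, Prss16, Ccl25, Aire, Krt5, Krt8 and Krt14, 8 genes of the thymic epithelium, were followed over 14 groups of mouse blood-forming and lymphoid tissue. Every probe set that the platform annotation assigns to exactly 1 of these genes was taken, which gave 14 probe sets among the 34842 that name a single gene. A further probe set, which names both Krt14 and Krt17, was left out. The values are RMA log2 signals from 57 Affymetrix arrays, so a difference of 1 is a doubling on the array's scale, and levels are compared only within a probe set.

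The series profiled a pair of transgenic leukemia models and wild-type mice. CA10 mice carry vav-CALM-AF10 and NHD13 mice carry vav-NUP98-HOXD13, fusion genes of myeloid leukemia driven by the vav promoter, which is active in blood-forming cells. Thymus was measured in 4 CA10, 3 NHD13 and 7 wild-type samples. The transgenic thymuses came from mice without signs of leukemia. Spleen came from 6 CA10 and 6 NHD13 samples with leukemia, 5 CA10 samples without signs of it and 2 wild-type samples. There were 3 CA10, 3 NHD13 and 6 wild-type whole marrows plus 3 of wild-type C57B6 mice, and lineage-negative marrow from 3 CA10, 3 NHD13 and 3 wild-type samples, with both transgenic sets again from mice without leukemia. The wild-type samples were age matched, and littermates where these could be had. The labels give no ages, and a strain only for the 3 C57B6 marrows. The labels do not say that the arrays of a group came from separate mice, so each p-value measures the spread between arrays, which may be technical.

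The thymus supports developing T cells with an epithelial scaffold that has a cortex and a medulla. Foxn1, a forkhead transcription factor, is required for this epithelium to form, and mice that lack it are nude and have no functional thymus. In the cortex, Psmb11 encodes the thymus-specific catalytic subunit of the proteasome, Prss16 a serine protease linked to peptide presentation on class II molecules, and Ccl25 a chemokine that attracts progenitors through its receptor Ccr9. In the medulla, Aire lets epithelial cells transcribe genes of other tissues, and Krt5 and Krt14 encode keratins of basal and medullary cells. Krt8 encodes a keratin of simple epithelium that is abundant in the cortex and present in part of the medulla.

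Promoters are shown for Psmb11 and Ccl25, which are known Foxn1 targets, and for Aire, because these genes carry the cortical and the medullary results below. FOXN1 is known to favour sites with the letters GACGC, and each match to GACGC on either strand (GCGTC on the printed strand for the reverse) is in capitals. The sequences are from RefSeq, build GRCm38.p6, and run from 250 bases before to 50 bases after the annotated start. They lie at chr14:54625060-54625359 on the plus strand for Psmb11, at chr8:4324960-4325259 and chr8:4349338-4349637 on the plus strand for the starts of Ccl25, and at chr10:78043561-78043860 on the minus strand for Aire.
Psmb11: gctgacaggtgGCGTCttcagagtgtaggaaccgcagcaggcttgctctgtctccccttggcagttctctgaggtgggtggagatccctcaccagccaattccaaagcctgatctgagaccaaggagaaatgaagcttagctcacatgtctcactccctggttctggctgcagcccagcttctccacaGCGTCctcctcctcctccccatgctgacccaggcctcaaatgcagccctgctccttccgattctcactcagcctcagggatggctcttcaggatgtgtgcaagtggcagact
Ccl25 first start: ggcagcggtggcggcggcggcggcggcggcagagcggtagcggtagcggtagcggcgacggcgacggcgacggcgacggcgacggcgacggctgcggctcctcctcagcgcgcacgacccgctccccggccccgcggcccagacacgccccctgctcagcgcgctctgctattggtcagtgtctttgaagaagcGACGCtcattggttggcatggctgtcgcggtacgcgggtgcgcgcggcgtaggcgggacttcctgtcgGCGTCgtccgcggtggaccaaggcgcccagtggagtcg
Ccl25 second start: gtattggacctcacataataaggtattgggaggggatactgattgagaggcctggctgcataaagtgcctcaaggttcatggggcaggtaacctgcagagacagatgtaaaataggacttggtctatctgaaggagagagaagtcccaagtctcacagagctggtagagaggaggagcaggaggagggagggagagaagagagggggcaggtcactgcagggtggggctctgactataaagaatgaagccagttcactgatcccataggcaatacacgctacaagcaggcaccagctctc
Aire: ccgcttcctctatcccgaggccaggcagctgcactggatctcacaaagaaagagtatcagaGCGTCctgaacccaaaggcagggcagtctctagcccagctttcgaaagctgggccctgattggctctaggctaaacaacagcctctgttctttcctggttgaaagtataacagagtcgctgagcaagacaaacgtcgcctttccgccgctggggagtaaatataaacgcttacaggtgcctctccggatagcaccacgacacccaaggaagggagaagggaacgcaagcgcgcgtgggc
The Psmb11 window holds 2 matches, the first Ccl25 window 2, the second Ccl25 window 0 and the Aire window 1. Of the other members, Krt5 has 1 match and Foxn1, Krt8 and Krt14 have 0, and Prss16 has no entry in the table. The letters occur in 8932 of the 32851 promoter windows of the same length (27.19%), so the matches are a description of the letters only.

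Of the 14 thymuses, 3 stood apart from the rest. Their mean absolute deviation from the median thymus was taken over all 34842 probe sets that name a single gene. It was 0.585 (CA10 thymus 3), 0.523 (wild-type thymus 2) and 0.562 (wild-type thymus 6), against 0.161 to 0.403 for the other 11. Thymocyte genes were low in wild-type thymus 2. Rag1, a recombinase of immature lymphocytes, was at 4.06 there and at 10.59 to 13.10 on the other 13 arrays. Dntt, the enzyme that adds bases at V(D)J joints, was at 5.63 there. Glycam1 (12.19) and Cxcl13 (12.02), genes of lymph node stroma, and the B cell gene Ms4a1 (10.53) were at their highest of the 14 thymuses there. These levels go against the label of wild-type thymus 2 as thymus. The label was kept, and the array is part of each wild-type thymus mean, SD and all-array difference unless it is named as left out. CA10 thymus 3 kept Rag1 at 11.49 but had Myh6, a cardiac myosin, at 12.19, against 3.62 to 11.03 on the other thymuses. NHD13 thymus 2, which was kept, was the next highest for Myh6 (11.03) and had the liver genes Alb at 13.69 and Apoc3 at 11.45, against at most 6.51 and 4.39 on the other 13. Wild-type thymus 6 had a narrow distribution of signals, with a 75th percentile of 7.03 against 7.39 to 7.68 on the other thymuses. Differences between thymus genotypes are therefore given for all arrays and for the 11 that remain without these 3.

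**Figure D1:**
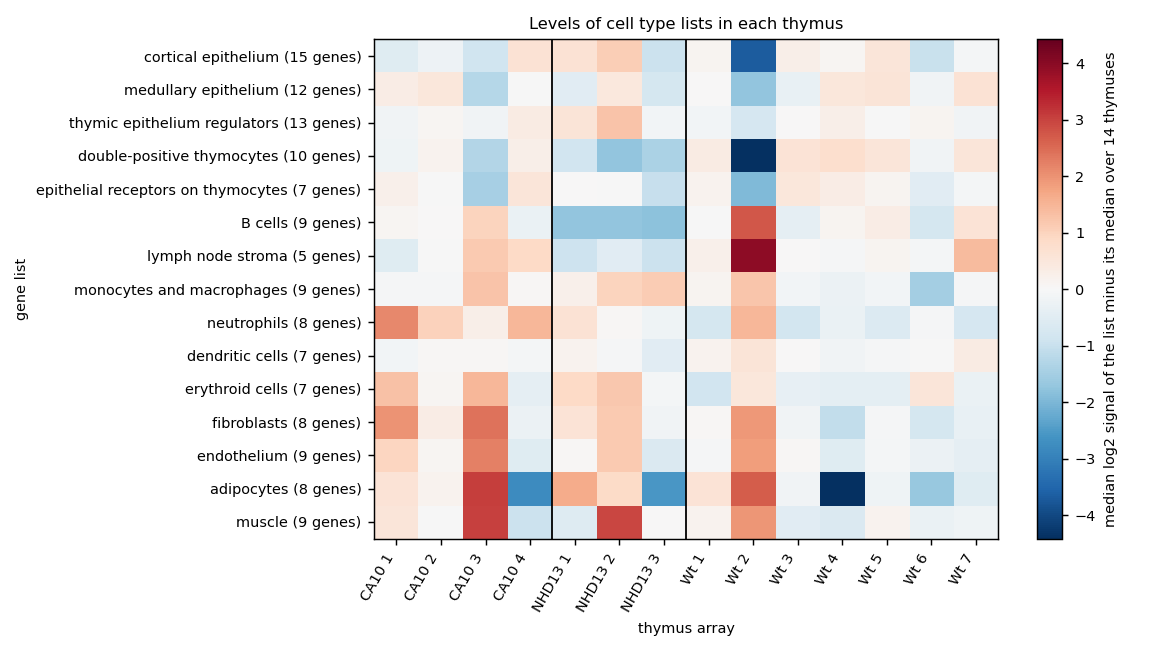
Median log2 signal of each cell type list (rows, with the number of genes measured) on each thymus array (columns: CA10, NHD13, wild type), minus that list's median over the 14 thymuses. The color scale is symmetric about 0, red is higher and blue is lower. Wild-type thymus 2 is low in both epithelial lists and the double-positive thymocyte list and high in the B cell and lymph node lists.

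In the 13 other thymuses most members stood far above their level in spleen and marrow. Ccl25 was at 10.70 to 13.38 there, against at most 6.52 on the 43 arrays of other tissues, and Krt8 was at 9.18 to 12.40, against at most 7.63. Prss16 (10.50 to 13.42) and Krt5 (8.39 to 9.60) were likewise above every other array, whose highest values were 9.33 and 7.65. Wild-type thymus 2 was the exception in each case, with Prss16 at 5.30, Ccl25 at 5.50 and Krt8 at 5.47, and Prss16 was below the lowest array of any other tissue (5.51). Psmb11 stood above the other tissues on 12 of 14 thymuses, Foxn1 on 10 and Aire on 5. Aire was thus near its level elsewhere in many thymuses, since its highest value outside the thymus was 6.90 (NHD13 lineage-negative marrow 3) and its median there was 5.64. That marrow array also set the highest value outside the thymus for Foxn1 (6.14), Psmb11 (5.42), Krt5 (7.65) and Krt8 (7.63). Apart from it, the highest values outside the thymus were 5.19 for Foxn1 and 6.45 for Aire. The Gapdh 3' minus 5' log2 signal, which rises as RNA is degraded, was 2.95 on that array, against -0.11 to 0.63 on the thymuses. The part of RNA quality in these values was not tested.

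The order of the 14 groups was led by the 3 thymus groups for each of the 8 genes, each by its brightest probe set in thymus. Choosing the probe set by its thymus signal favours that order. Among the other probe sets, both of Krt8 and 1460347_at of Krt14 kept it. Those that did not were 1450508_at of Foxn1, 1458277_at of Ccl25 and 1455573_at of Krt14. For example, 1450508_at averaged 5.31 in CA10 thymus and 5.54 in CA10 whole marrow. For Aire the order was wild-type thymus (7.08 ± 0.81, SD, n = 7), CA10 thymus (6.75 ± 0.93, n = 4), NHD13 thymus (6.24 ± 0.31, n = 3) and then NHD13 lineage-negative marrow (6.14 ± 0.68, n = 3), and these neighbours overlapped. For Psmb11 the order was NHD13 thymus (9.45 ± 1.38, n = 3), wild-type thymus (7.55 ± 1.69, n = 7), CA10 thymus (7.27 ± 1.83, n = 4) and then CA10 whole marrow (5.05 ± 0.34, n = 3). The arrays of neighbouring thymus groups overlapped for all 8 genes. Over the 11 arrays Aire averaged 7.41 ± 0.56 in wild-type thymus (n = 5), 7.10 ± 0.72 in CA10 (n = 3) and 6.24 ± 0.31 in NHD13 (n = 3), and Psmb11 averaged 9.45 ± 1.38 in NHD13, 8.39 ± 0.63 in wild type and 8.09 ± 0.96 in CA10.

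**Figure D2:**
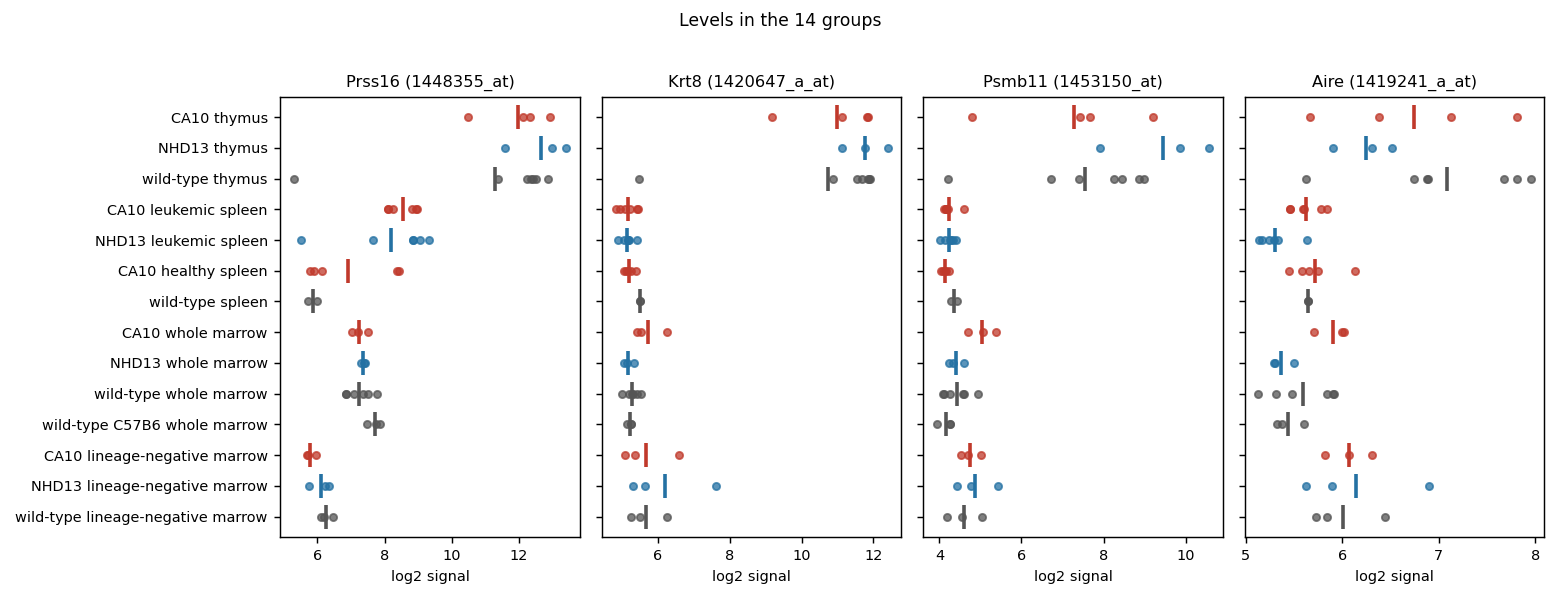
Log2 signal of Prss16, Krt8, Psmb11 and Aire on each of the 57 arrays (points) with group means (vertical ticks), CA10 in red, NHD13 in blue and wild type in grey. For Prss16 and Krt8 the thymus arrays other than wild-type thymus 2 lie to the right of the other tissues, and for Psmb11 those other than wild-type thymus 2 and CA10 thymus 3 do. Aire overlaps between tissues, and Prss16 is also above 8 in most leukemic spleens.

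Set against wild-type whole marrow in a limma fit over the 21 wild-type arrays, 11 of the 13 member probe sets tested were higher in wild-type thymus (Benjamini-Hochberg adjusted p under 0.05), with at least 1 called for each of the 8 genes. Of all 28025 probe sets tested, 24.1% were higher, and 45.1% were called in either direction. The members were chosen as thymus genes, so these counts describe them and are no open test. The filter on low signal also let some in largely through thymus. Probe sets 1456815_at of Foxn1 and 1453150_at of Psmb11 were above the 40th percentile on 13 of 57 arrays. Those of Krt14 that were tested were above it on 15 and 16. The log2 differences were 6.06 ± 0.81 (SE) for Ccl25, 5.46 ± 0.71 for Krt8 and 4.06 ± 0.81 for Prss16, and 1.48 ± 0.28 for Aire (limma adjusted p = 0.000283). Without wild-type thymus 2 they were 7.08 ± 0.17, 6.34 ± 0.18, 5.06 ± 0.21 and 1.73 ± 0.22, and without wild-type thymuses 2 and 6 they were 7.19 ± 0.15, 6.49 ± 0.16, 5.24 ± 0.17 and 1.82 ± 0.22. Against wild-type spleen 11 of 13 were higher (3.98% of all probe sets, and 9.17% called in either direction), and against wild-type lineage-negative marrow 11 of 13 (21% of all probe sets, and 41% in either direction). The count against spleen rested on both wild-type spleens. It was 4 when the first of them was left out, 5 when the second was, and 0 when only the groups compared were fitted (limma, with 12 at an unadjusted p under 0.05). The exceptions were 1450508_at of Foxn1 and 1458277_at of Ccl25. Over all arrays both missed the threshold in each of the 3 comparisons. Probe set 1458277_at was at 3.92 to 5.94 in thymus, while 1418777_at of the same gene was at 10.70 or more in 13 thymuses. The remaining probe set, 1455573_at of Krt14, failed the filter on low signal with a highest value of 5.88.

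Cortical and medullary lists of 15 and 12 measured genes were also read, and both include members. The cortical list holds Foxn1, Psmb11, Prss16, Ccl25 and Krt8, and the medullary list Aire, Krt5 and Krt14. In the 11 thymuses the median log2 signal of the cortical list ran from 9.42 to 10.61 in CA10, from 9.02 to 11.04 in NHD13 and from 9.87 to 10.50 in wild type. That of the medullary list ran from 7.18 to 7.72 in CA10, from 6.43 to 7.70 in NHD13 and from 6.90 to 7.84 in wild type. The ranges of the 3 genotypes overlapped in both lists.

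The transgenic thymuses were next compared with wild-type thymus and with each other. In whole thymus RNA, fewer cells of a type and less RNA per cell cannot be told apart. None of the 13 member probe sets tested was called in CA10 against wild-type thymus (0% of all 28025 probe sets were called, 1147 at an unadjusted p under 0.05), in NHD13 against wild-type thymus (0.589% called) or in CA10 against NHD13 thymus (0.132% called). At an unadjusted p under 0.05 the members gave 0 in CA10 against wild type. The median log2 difference of the 8 genes was 0.27 in CA10 and 1.00 in NHD13 against wild type, beside -0.02 and 0.01 over all probe sets, and -0.23 and 0.06 over the 11 arrays. Without the 3 arrays that stood apart the members again gave 0 calls, while 7, 2328 and 572 of all probe sets were called (0.025%, 8.31% and 2.04%).

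**Figure D3:**
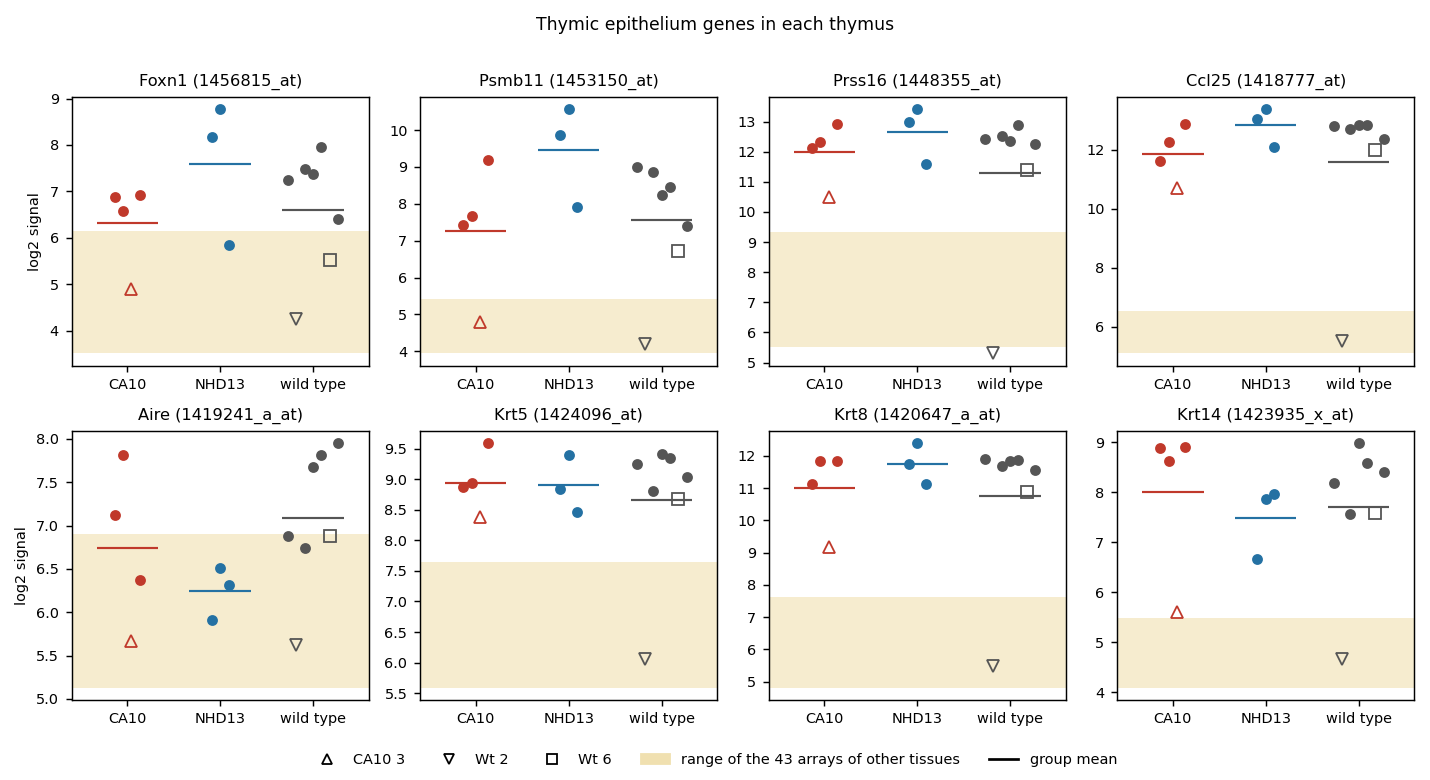
Log2 signal of the 8 genes, each by its brightest probe set in thymus, on the CA10, NHD13 and wild-type thymus arrays (points) with group means (lines). Open symbols mark the 3 arrays that stood apart, and the shaded band is the range of the 43 arrays of other tissues. Wild-type thymus 2 lies within or below the band for all 8 genes, and the 3 NHD13 thymuses lie within the band for Aire.

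Foxn1 (probe set 1456815_at) had 6.88, 6.57, 4.91 and 6.93 in CA10 thymuses 1 to 4, 8.16, 8.78 and 5.85 in NHD13 thymuses 1 to 3, and a lowest, median and highest value of 4.26, 7.26 and 7.95 in wild-type thymuses. The highest values were NHD13 thymuses 1 and 2, but NHD13 thymus 3 lay below most of the others and the groups overlapped. The log2 difference was -0.29 ± 0.71 in CA10 against wild type and 0.99 ± 0.78 in NHD13 against wild type (limma adjusted p = 0.971 and 0.72), and -0.50 ± 0.55 and 0.30 ± 0.55 over the 11 arrays.

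Psmb11 (1453150_at) had 7.42, 7.67, 4.79 and 9.19 in CA10 thymuses, 9.87, 10.58 and 7.91 in NHD13 thymuses, and 4.20, 8.25 and 8.99 as lowest, median and highest in wild type. NHD13 thymuses 1 and 2 were above every wild-type thymus and NHD13 thymus 3 was within the wild-type range. In NHD13 against wild type the log2 difference was 1.90 ± 1.02 (limma adjusted p = 0.529) and 1.06 ± 0.60 over the 11 arrays (adjusted p = 0.338), and in CA10 against NHD13 it was -2.18 ± 1.13 (adjusted p = 0.556) and -1.36 ± 0.67 over the 11 arrays (adjusted p = 0.304). This was the member with the largest positive difference in NHD13, and it was not called in either set of arrays.

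Prss16 (1448355_at) had 12.13, 12.33, 10.50 and 12.93 in CA10 thymuses, 12.99, 13.42 and 11.60 in NHD13 thymuses, and 5.30, 12.37 and 12.88 as lowest, median and highest in wild type. Ccl25 (1418777_at) had 11.60, 12.25, 10.70 and 12.88 in CA10 thymuses, 13.03, 13.38 and 12.09 in NHD13 thymuses, and 5.50, 12.69 and 12.83 in wild type. For both genes wild-type thymus 2 was the lowest and CA10 thymus 3 the next, and the groups overlapped. Prss16 differed by 0.67 ± 1.16 in CA10 and 1.37 ± 1.28 in NHD13 against wild type over all arrays, and by -0.02 ± 0.35 and 0.18 ± 0.35 over the 11. Ccl25 differed by 0.29 ± 1.14 in CA10 and 1.26 ± 1.26 in NHD13 over all arrays, and by -0.46 ± 0.32 and 0.13 ± 0.32 over the 11. The sign in CA10 thus turned with the 3 arrays for both genes.

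Aire (1419241_a_at), which marks the medulla, had 7.13, 7.81, 5.67 and 6.38 in CA10 thymuses, 5.91, 6.51 and 6.31 in NHD13 thymuses, and 5.63, 6.88 and 7.95 as lowest, median and highest in wild type. All 3 NHD13 values were below every wild-type thymus except wild-type 2, and none reached the highest non-thymus array (6.90), whose RNA was degraded by the Gapdh measure. NHD13 thymus 2 was above the next highest non-thymus array (6.45). In NHD13 against wild type the log2 difference was -0.84 ± 0.49 (limma adjusted p = 0.573) and -1.17 ± 0.36 over the 11 arrays (limma adjusted p = 0.0724), so Aire missed the threshold in both. In CA10 against wild type it was -0.34 ± 0.44 (adjusted p = 0.958) and -0.31 ± 0.36 over the 11 arrays (adjusted p = 0.763).

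Krt5 (1424096_at) had 8.87, 8.94, 8.39 and 9.60 in CA10 thymuses, 8.85, 9.40 and 8.46 in NHD13 thymuses, and 6.06, 9.04 and 9.41 in wild type. Krt8 (1420647_a_at) had 11.13, 11.83, 9.18 and 11.86 in CA10 thymuses, 11.75, 12.40 and 11.12 in NHD13 thymuses, and 5.47, 11.69 and 11.91 in wild type. The groups overlapped for both keratins, and wild-type thymus 2 was the lowest. In NHD13 against wild type Krt5 differed by 0.25 ± 0.58 over all arrays and by -0.27 ± 0.24 over the 11, and Krt8 by 1.01 ± 1.14 and by -0.02 ± 0.26, so both signs turned with the 3 arrays. In CA10 against wild type Krt5 differed by 0.29 ± 0.52 and by -0.04 ± 0.24, and Krt8 by 0.25 ± 1.04 and by -0.17 ± 0.26. Both other Krt8 probe sets, 1423691_x_at and 1435989_x_at, gave 0.97 ± 1.15 and 0.97 ± 1.06 over all arrays in NHD13 against wild type, and -0.07 ± 0.31 and 0.00 ± 0.28 over the 11.

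Krt14 (1423935_x_at) had 8.89, 8.62, 5.60 and 8.90 in CA10 thymuses, 6.66, 7.86 and 7.97 in NHD13 thymuses, and 4.66, 8.18 and 8.98 in wild type. NHD13 thymus 1 was the lowest apart from wild-type thymus 2 and CA10 thymus 3, and the groups overlapped. In NHD13 against wild type Krt14 differed by -0.21 ± 0.85 over all arrays (limma adjusted p = 0.959) and by -0.85 ± 0.34 over the 11 (adjusted p = 0.167). In CA10 against NHD13 it differed by 0.51 ± 0.94 over all arrays (adjusted p = 0.886) and by 1.31 ± 0.38 over the 11 (adjusted p = 0.104). The second probe set, 1460347_at, gave -0.16 ± 0.67 over all arrays and -0.60 ± 0.29 over the 11 in NHD13 against wild type. Probe sets ending in _x_at can hybridise with related transcripts, here those of other keratins.

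Relative to Krt8 on the same array, with wild-type thymus 2 left out, Psmb11 was 1.21 log2 units higher in NHD13 than in wild-type thymus and the difference for Aire was -1.21. Two-sided exact permutation tests gave p = 0.0714 for each, where the smallest possible was 0.0238. Krt14 differed by -0.85 (exact p = 0.143) and Krt5 by -0.32 (exact p = 0.0476). No value among the 21 tests passed Benjamini-Hochberg adjustment, the lowest adjusted p being 0.4. With so few arrays no single test could pass it alone, so nothing is concluded from that. The smallest possible exact p was 0.0095 in CA10 against wild type and 0.0571 in CA10 against NHD13, above 0.05 before adjustment. Over the 11 arrays Psmb11 differed by 1.07 and Aire by -1.15 (exact p = 0.107 for each, where the smallest possible was 0.0357), Krt14 by -0.83 (exact p = 0.179) and Krt5 by -0.25 (exact p = 0.0714). The groups overlapped for all 7 genes in all 3 comparisons. This comparison was added after the data were seen.

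**Figure D4:**
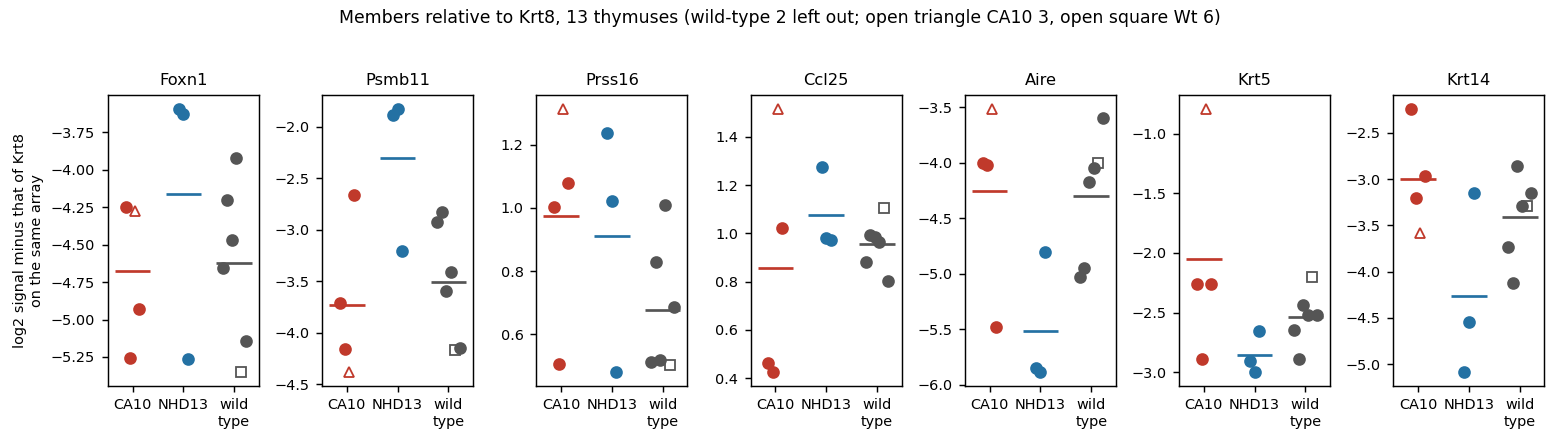
Log2 signal of 7 genes minus that of Krt8 on the same array, for CA10, NHD13 and wild-type thymuses (points, with group means as lines), without wild-type thymus 2. Only differences between arrays can be read, not the level. Psmb11 is highest in NHD13 thymuses 1 and 2 and Aire is lowest there, and the groups overlap for each gene.

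Levels of cortical members were correlated across thymuses. Over the 14 arrays Foxn1 and Psmb11 had Pearson r = 0.933 and Spearman rho = 0.895 (adjusted permutation p = 2.8e-05 and 0.000187 over 28 pairs). Without the 2 arrays farthest from the median of Foxn1 r was 0.857. It was 0.809 over the 11 arrays and 0.885 within the 6 wild-type thymuses other than 2. Aire and Krt14 had r = 0.777 and rho = 0.692 (adjusted permutation p = 0.00054 and 0.0139), and r = 0.644 and rho = 0.491 over the 11 arrays. Without the 2 arrays farthest from the median of Aire r was 0.759, but CA10 thymus 3 stayed in. For the medullary gene Krt5 the closest members depended on the measure and the arrays. Over the 11 arrays its r was 0.211 with Aire and 0.450 with Krt14. With cortical members it was 0.654 (Prss16), 0.607 (Ccl25), 0.469 (Foxn1) and 0.387 (Psmb11). Its rho over the 11 arrays was 0.264 with Aire and 0.591 with Krt14. With the same cortical members rho was 0.445, 0.591, 0.291 and 0.300. Within the 6 wild-type thymuses other than 2 its r was 0.589 with Aire and 0.910 with Krt14. With the same cortical members r was 0.680, 0.793, 0.685 and 0.509 there. Psmb11 and Aire had r = 0.254 and rho = 0.02 (adjusted permutation p = 0.384 and 0.953). They had r = -0.542 without the 2 arrays farthest from the median of Psmb11 and -0.654 over the 11 arrays. The sign of that relation thus rested on the arrays left out. Within the 6 wild-type thymuses Psmb11 and Aire had r = -0.176. CA10 and NHD13 thymuses were too few for a value of their own.

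**Figure D5:**
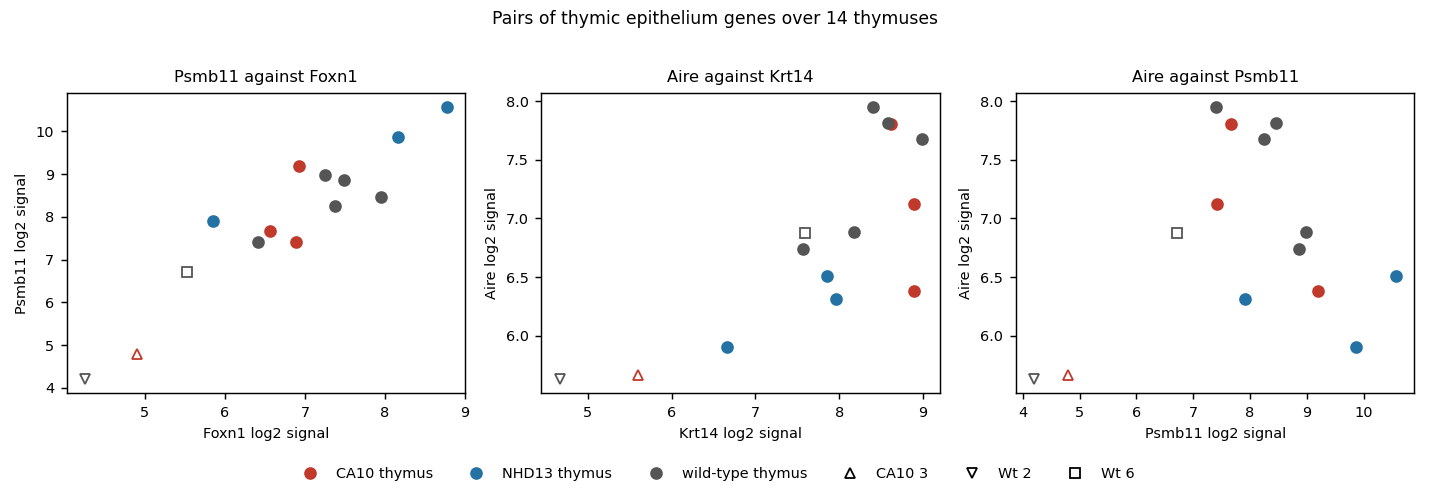
Log2 signals of Psmb11 against Foxn1, Aire against Krt14 and Aire against Psmb11 on the 14 thymus arrays, colored by genotype, with open symbols for the 3 arrays that stood apart. The first pair rises together, and in the third pair CA10 thymus 3 and wild-type thymus 2 lie apart at the lower left.

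The probe sets most like each member over the 14 thymuses were found by Pearson r. For Foxn1 they were Minar2 (r = 0.981, rho = 0.974), Tmem30b (0.971, 0.965) and Shisa2 (0.965, 0.916), and for Psmb11 Pds5b (0.986, 0.965), Oma1 (0.98, 0.974) and Fgf14 (0.979, 0.996). Prss16, Ccl25, Krt5 and Krt8 shared the same leaders, Tbata, a gene expressed in thymic epithelium, and Krt18, the keratin partner of Krt8. For Prss16 these had r = 0.994 and 0.993. For Aire they were Marf1 (0.951, 0.921), Kdm6b (0.943, 0.938) and Ttc3 (0.938, 0.956), and for Krt14 Krt17 (0.95, 0.859), Pabpn1 (0.947, 0.71) and Ubd (0.944, 0.727). Over the 11 arrays Fgf14 stayed at r = 0.994 with Psmb11, whereas Tbata had r = 0.896 with Prss16 and Krt18 had r = 0.634 with Krt5. Chosen over the 11 arrays, the leaders were no longer shared. They were Ociad2, Hgsnat and Alcam for Prss16, and Il7, Krt18 and Dnajc12 for Ccl25. For Krt5 they were Fkbp8, Eml5 and Cmah, and for Krt8 Pmaip1, Sema4a and Krt18. Minar2 and Tmem30b stayed among those of Foxn1, while those of Aire and Krt14 were all replaced.

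The wider lists were read for what lies around the epithelium. In NHD13 against wild-type thymus, 0 of 15 cortical genes (median log2 difference 0.90) and 0 of 12 medullary genes (median -0.23) were called, beside a median of 0.01 over all probe sets. Both lists include members, so they repeat part of the member results. Of all probe sets 0.589% were called in this comparison. Of 12 genes of the signals that mature the medulla, 2 fell: Ltb (-2.37 ± 0.43, adjusted p = 0.0267) and Lta (-1.44 ± 0.25, adjusted p = 0.0211), which encode lymphotoxins. Of 7 receptors on thymocytes 1 fell, Ccr7 (-2.66 ± 0.43, adjusted p = 0.0126), which guides thymocytes to the medulla. Of 9 B cell genes 2 fell, Ms4a1 (-3.41 ± 0.67, adjusted p = 0.0374) and Ighm (-2.28 ± 0.34, adjusted p = 0.00699). Ltb had 8.45, 9.31 and 7.13 in NHD13 thymuses, below all 7 wild-type thymuses (lowest 10.15).

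Over the 11 arrays more was called in NHD13 against wild type, where 8.31% of all probe sets were called. Of 10 double-positive thymocyte genes 6 fell, with Cd8b1 at -3.87 ± 0.73, Cd8a at -3.56 ± 0.55, Rag2 at -3.27 ± 0.36 and Cd4 at -2.35 ± 0.28. Of 7 receptors on thymocytes 3 fell, Ccr7 at -2.73 ± 0.36, the costimulatory receptor Cd28 at -2.57 ± 0.28 and Ccr9, the receptor for Ccl25, at -2.31 ± 0.33 (adjusted p = 0.00211). Kit, the stem cell factor receptor of early progenitors, rose by 1.97 ± 0.35. Ccl25 itself differed by 0.13 ± 0.32. Of the 12 genes of medullary signals 4 fell and 1 rose. Ltb was at -2.46 ± 0.40, Lta at -1.36 ± 0.18 and Relb, an NF-kB subunit required for the medulla, at -1.06 ± 0.27 (adjusted p = 0.0378), while Tnfsf11, the RANK ligand that induces Aire-expressing cells, rose by 1.15 ± 0.28 (adjusted p = 0.0307). Among 12 regulators of the epithelium tested, 1 rose, Eya1, a cofactor in thymus formation, by 1.66 ± 0.34 (adjusted p = 0.0141). The tuft cell gene Dclk1 (-1.12 ± 0.21) and Krt10, a keratin of differentiated keratinocytes (-1.48 ± 0.40), fell, each the 1 call of its list. Of the 8 genes tested in a list drawn up as tissue antigens that depend on Aire, 0 were called (median 0.09). That each of them depends on Aire was not tested. Alb, Apoc3 and Crp of that list were at 13.69, 11.45 and 8.30 in NHD13 thymus 2, against at most 4.23 in NHD13 thymuses 1 and 3. Without NHD13 thymus 2, with all other thymuses in the fit, the members gave 0 calls in NHD13 against wild type.

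Genes of blood and stromal cell types were also called over the 11 arrays in NHD13 against wild type. Of 9 B cell genes 7 fell, with Ms4a1 at -3.15 ± 0.33, Ighm at -2.54 ± 0.26, Cd79a at -1.99 ± 0.23 and Fcer2a at -1.35 ± 0.28. Cr2, a complement receptor of the lymph node list that also holds Fcer2a, fell by 1.16 ± 0.20, and Flt3, a receptor of the dendritic cell list, by 0.74 ± 0.15. Of 6 erythroid genes tested 2 rose, Alas2 by 2.42 ± 0.54 and Slc4a1 by 1.96 ± 0.46. Of 8 neutrophil genes 2 rose, S100a9 by 1.36 ± 0.33 and Ngp by 1.35 ± 0.23. Of 9 monocyte and macrophage genes Cd68 (0.93 ± 0.21) and Ms4a7 (0.89 ± 0.24) rose, and of 8 fibroblast genes Lum, a matrix proteoglycan, did (1.14 ± 0.25). The cortical list gave 0 of 15 calls (median 0.23) and the medullary list 0 of 12 (median -0.58). The median B cell level was 5.51 to 5.58 in the NHD13 thymuses, against 6.90 to 7.92 in wild type, and that of double-positive thymocytes 9.13 to 10.02 in NHD13, against 11.25 to 11.62 in wild type. The summed log2 signals of these lists were 53.5 to 58.8 and 89.8 to 101 in NHD13, against 65.2 to 71.4 and 109.9 to 111.8 in wild type. The median level was 6.27 to 7.56 for erythroid genes, 6.14 to 6.96 for neutrophil genes, 8.38 to 9.26 for macrophage genes and 8.26 to 9.56 for fibroblast genes in NHD13, against 5.52 to 6.07, 5.53 to 6.04, 7.89 to 8.25 and 7.31 to 8.45 in wild type. The part of these cell types in the epithelial values was not tested.

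In CA10 against wild-type thymus the epithelial lists gave 0 calls with all arrays and with the 11. Over the 11 arrays, where 0.025% of all probe sets were called, 4 of 8 neutrophil genes rose, S100a9 by 3.49 ± 0.33, Ngp by 3.20 ± 0.23, S100a8 by 2.89 ± 0.37 and Camp by 2.78 ± 0.23, and over all arrays 0 of 8 did. S100a9 and Ngp were also called higher in NHD13 than in wild-type thymus over the 11 arrays. The median of that list was 7.34 to 8.44 in CA10 thymuses against 5.53 to 6.04 in wild type over the 11 arrays, and its summed log2 signal 59.7 to 68.4 in CA10 against 45.3 to 49.7 in wild type. The part of neutrophils in the epithelial values was not tested.

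Outside the thymus, Prss16 was higher in leukemic than in wild-type spleen on most arrays. It had 8.10, 8.55 and 8.98 as lowest, median and highest in CA10 leukemic spleen, 5.51, 8.85 and 9.33 in NHD13 leukemic spleen, and 5.99 and 5.72 in wild-type spleen. Every CA10 leukemic spleen, and all but NHD13 leukemic spleen 3, were above the wild-type spleens. The log2 difference was 2.68 ± 0.84 for CA10 (limma adjusted p = 0.0592, not called; 7.08% of all probe sets were called) and 2.35 ± 0.84 for NHD13 (adjusted p = 0.0408, called; 31.2% of all probe sets were called). No member was called in CA10 spleen without leukemia against wild-type spleen, where 0% of all probe sets were called (676 at an unadjusted p under 0.05). CA10 spleens without leukemia had 8.42, 5.89, 8.38, 5.79 and 6.13, so 2 of them were at the level of the leukemic ones. In this group spleen 1 had a Gapdh 3' minus 5' log2 signal of 2.09, and the others 0.14 to 0.58. The CA10 leukemic spleens had -0.05 to 0.22. The part of RNA quality in these values was not tested. Against the CA10 spleens without leukemia the CA10 leukemic spleens differed by 1.61 ± 0.62 (limma adjusted p = 0.128). There 6.26% of all probe sets were called.

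The call for Prss16 in NHD13 leukemic spleen was lost without NHD13 leukemic spleen 1, 2, 4 or 6 or either wild-type spleen (adjusted p 0.0653 to 0.209), with all arrays in the fit (0.0808) and with only the groups compared (0.0901). The CA10 difference was called when only the groups compared were fitted (adjusted p = 0.00366) and with the Gapdh 3' minus 5' difference as a covariate (0.0307). Ccl25 was also called in NHD13 against wild-type spleen by limma, by 0.66 ± 0.24 (1418777_at, adjusted p = 0.0474) and 0.95 ± 0.22 (1458277_at, adjusted p = 0.00324), at levels of at most 6.52. Probe set 1458277_at did not follow the other across tissues. It averaged 5.76 in NHD13 leukemic spleen and 5.35 in wild-type thymus, where 1418777_at averaged 11.57. The call of 1418777_at was lost without NHD13 leukemic spleen 2, 3, 4 or 5 or either wild-type spleen (adjusted p 0.0612 to 0.264), with no filter on low signal (0.0501), with sex as a term (0.0536), with only the groups compared (0.11) and with all arrays (0.63). So 3 of 13 probe sets were higher there, beside 18.6% of all probe sets. The Krt8 level in these spleens was at most 5.46, near that of the wild-type spleens (5.49 and 5.50). In whole and lineage-negative marrow no member was called in either transgenic line by limma, where 0% (CA10) and 0.814% (NHD13) of all probe sets were called in whole marrow and 0% (CA10) and 0.0214% (NHD13) in lineage-negative marrow. At an unadjusted p under 0.05 the CA10 comparisons gave 4374 probe sets in whole marrow and 128 in lineage-negative marrow. The 75th percentile of signals was 7.12 to 7.15 in the CA10 whole marrows and wild-type whole marrows 4 to 6. It was 7.48 to 7.59 in wild-type whole marrows 1 to 3, so the wild-type set mixed both kinds of array. Prss16 was at 7.05 to 7.50 in CA10 whole marrow, 7.31 to 7.43 in NHD13 and 6.85 to 7.78 in wild type, and these overlapped.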

How the data were processed

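RNA from mouse thymus, spleen and marrow was hybridised to Affymetrix arrays. The deposited values are log2 signals that the authors made with RMA, per the submitters' processing notes; its settings and version are not given in the sources. Array distributions were not identical (medians 5.44 to 5.85), and 10 arrays, wild-type thymus 6 among them, had a narrow spread. The others were CA10 whole marrows 1 to 3, wild-type whole marrows 4 to 6 and replicate 3 of each lineage-negative group. Arrays have no read depth, and their number limits the precision. Probe sets were named from the platform annotation, checked through RefSeq gene identifiers (34638 matched, 0 symbols changed). Of 44943 probe sets, 34842 name 1 gene, 931 several and 9157 none, and 13 are control probe sets naming 1 gene.

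Probe sets above the 40th percentile of an array on at least 3 arrays were tested (28025), with group-mean models in limma 3.58.1 (R 4.3.3), fitted per tissue for transgenic comparisons and over the 21 wild-type arrays for tissue comparisons, with Benjamini-Hochberg adjustment over all probe sets tested and a threshold of 0.05. The limma code was tested on simulated data. Member levels relative to Krt8 were tested by exact permutation with scipy 1.17.1, and correlations by 100000 permutations. Alternatives changed the filter, normalization, probe set rule, covariates, arrays and replicate block. Same-numbered thymuses did not vary together consistently. Their r of deviations ran from -0.56 to 0.68, with both signs, so numbers were not treated as pairs there. The highest was that of CA10 and wild-type thymus 4. In lineage-negative marrow every pair exceeded 0.1 (0.19 to 0.73), and the block changed no member call.

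The text names all member probe sets, up to 4 called genes of each list by size of change in the comparisons with wild-type thymus, and the 3 probe sets most like each member; other list genes and arrays that stand apart are named for their level. The members and lists were chosen with earlier results of these data known.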

Additional observations from a re-analysis of the deposited data

Results flagged for a closer look

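Of 84 groups of 4 to 10 arrays, each for 1 member probe set, 11 held an array far from its neighbours by Dixon's criterion. Chance alone gives about 1 in 20 for independent groups. Here the same arrays recur across probe sets, so the count cannot be judged by that rate. Wild-type thymus 2, already marked as standing apart, was the far array in 8 of the 11. It had Prss16 at 5.304, Ccl25 (1418777_at) at 5.502, Krt5 at 6.059, Krt8 at 5.473, 4.989 and 4.713 on its 3 probe sets, and Krt14 at 4.665 (1423935_x_at) and 4.344 (1460347_at), each the lowest of the 7 wild-type thymuses. CA10 thymus 3 was the lowest of 4 for Krt14 (1423935_x_at) at 5.603. Wild-type thymus 6 was the highest of 7 for 1455573_at of Krt14 at 5.876, a probe set near background. CA10 leukemic spleen 5 was the highest of 6 for Psmb11 at 4.608, below all but 1 of the thymuses.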

How the results depend on the processing

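The 3 comparisons between thymus genotypes gave 0 member calls in all 67 alternatives run. Of 292 alternatives for the member counts of the 14 comparisons, 277 stayed within 1.5 times the main count. Most of these were comparisons with a main count of 0 that stayed at 0, so the total says little about the calls. In NHD13 leukemic against wild-type spleen, 4 of 8 alternatives that left an array out moved beyond that range, and 2 of 11 others. In wild-type thymus against spleen 2 of 9 and 2 of 13 did. Taking 1 probe set per gene, which tests fewer features, gave 7 calls in wild-type thymus against whole marrow, spleen and lineage-negative marrow alike, and the replicate block gave 11, 8 and 10. Against spleen, fitting only the groups compared gave 0 calls (limma), and leaving out arrays gave 4 to 12, with 4 and 5 without wild-type spleen 1 or 2. CA10 leukemic against wild-type spleen gave 1 call with only the groups compared and 1 with the Gapdh 3' minus 5' difference as covariate, and NHD13 leukemic against wild-type spleen gave 1 with only the groups compared, 1 with all arrays, and 0 to 2 without single arrays. CA10 against wild-type whole marrow gave 9 calls (of 14547 over all probe sets) in the replicate block, which keeps only wild-type marrows 1 to 3. That block sets CA10 arrays with a narrow spread of signals against wild-type arrays without one, and the part of this was not tested. The other 11 alternatives that left no single array out, among them wild-type marrows 4 to 6 only, gave 0 member calls. Where no other reason is given, the cause was not tested.

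Signs turned only for uncalled differences. In CA10 against wild-type thymus, leaving out 3 arrays gave Prss16 -0.017, Ccl25 -0.458, Krt5 -0.038 and Krt8 -0.168, and leaving out wild-type thymus 2, chosen after seeing the data, gave -0.327, -0.725, -0.141 and -0.626 and Krt14 -0.214. Ccl25 was -0.033 as the mean of its probe sets, and Aire 0.014 in the replicate block. Single arrays left out gave Foxn1 -0.68 to 0.184, Psmb11 -0.926 to 0.541, Prss16 -0.327 to 1.166, Ccl25 -0.725 to 0.672, Aire -0.691 to 0.023, Krt5 -0.141 to 0.478, Krt8 -0.626 to 0.859 and Krt14 -0.214 to 1.094. In NHD13 against wild type, Krt5 was -0.27 and Krt8 -0.017 without 3 arrays, Krt5 -0.188 without wild-type thymus 2, and Krt14 0.569 in the replicate block and 0.463 with the Gapdh covariate; single arrays left out gave Krt5 -0.188 to 0.466 and Krt14 -0.721 to 0.203. In CA10 against NHD13, Krt5 was -0.233 in the block, -0.138 with the covariate and -0.174 to 0.295 without single arrays. In CA10 spleen without leukemia against wild type, Ccl25 was 0.041 as the mean of probe sets, 0.014 after quantile normalization and -0.125 to 0.081 without single arrays. Relative to Krt8, without 3 arrays, Prss16 in CA10 against NHD13 was -0.05 and Aire in CA10 against wild type -0.141.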
